A study of Mus musculus with 46 samples.

Results

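Rbbp5 is a core component of the KMT2 (MLL and SETD1) methyltransferases, which place methyl groups on lysine 4 of histone H3 (H3K4). The stage change from the inner cell mass (ICM) of the blastocyst at embryonic day (E) 3.5 to the epiblast at E5.5 was followed here in mouse embryos that lacked it. The knockout (KO) samples were 7 single E3.5 ICMs and 3 single E5.5 epiblasts, all RNA libraries labelled with the Rbbp5 KO genotype at those 2 stages, and they make up 10 of the 46 samples of the series. The wild-type (WT) ICMs (7 libraries) and WT E5.5 epiblasts (3 libraries) gave the normal change over the same interval. Each library came from 1 embryo, by SMART-seq2 cDNA amplification and Tn5 library preparation, and values are FPKM (fragment numbers normalised to the size of the transcript and of the library). Knockout was made in zygotes either by guide RNA with Cas9 mRNA or by Cre mRNA in Rbbp5 flox/flox zygotes, and the labels do not tie either route to a library. Blastocysts were grown in culture and their ICMs taken by immunosurgery, while the E5.5 epiblasts were cut by hand from embryos that had implanted, KO embryos after transfer at the 2-cell stage to foster females. Stage therefore cannot be told apart from culture or from the way the tissue was isolated. At E5.5, genotype likewise cannot be told apart from the zygote injection and embryo transfer that are described for KO embryos. This holds for every difference between KO and WT stage changes below. The level of Rbbp5 was not used here, and so no check of genotype on the targeted gene was made.

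The ICM holds cells that become the epiblast, the source of the fetus, and cells that become the primitive endoderm. Around implantation the epiblast gives up its naive program, with transcription factors such as Nanog and Klf4, and takes up a formative one, with Otx2, Fgf5 and the de novo DNA methyltransferases Dnmt3a and Dnmt3b. Its metabolism turns toward glycolysis. The trophectoderm and its E5.5 derivative, the extraembryonic ectoderm, form the placental lineage, lie against the epiblast and should be absent from a clean epiblast dissection. H3K4 trimethylation marks active and CpG-rich promoters.

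Promoters of 4 genes on which the results turn are shown with each CG in capitals, since CpG density is the promoter feature most tied to H3K4 methylation. They stand for a fall that still took place (Pramel4), a rise that was weaker (Dnmt3b) and rises seen in KO embryos but not in WT ones (Krt8, Elf5). Each is the 250 bases before the RefSeq start in GRCm38.p6, read 5′ to 3′ on the strand of the gene.
Pramel4: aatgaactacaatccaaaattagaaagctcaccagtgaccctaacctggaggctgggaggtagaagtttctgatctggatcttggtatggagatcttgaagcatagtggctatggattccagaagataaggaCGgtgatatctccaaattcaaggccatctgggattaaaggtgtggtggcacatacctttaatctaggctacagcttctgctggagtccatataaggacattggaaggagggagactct
Dnmt3b: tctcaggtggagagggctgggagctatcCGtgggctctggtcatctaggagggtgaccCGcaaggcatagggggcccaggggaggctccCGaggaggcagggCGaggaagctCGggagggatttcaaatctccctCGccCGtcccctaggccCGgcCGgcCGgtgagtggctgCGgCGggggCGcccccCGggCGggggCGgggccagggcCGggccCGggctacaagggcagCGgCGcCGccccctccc
Krt8: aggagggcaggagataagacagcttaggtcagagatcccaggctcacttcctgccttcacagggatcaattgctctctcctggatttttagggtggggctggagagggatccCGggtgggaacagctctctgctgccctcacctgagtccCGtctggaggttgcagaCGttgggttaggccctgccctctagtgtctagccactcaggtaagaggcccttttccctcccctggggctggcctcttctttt
Elf5: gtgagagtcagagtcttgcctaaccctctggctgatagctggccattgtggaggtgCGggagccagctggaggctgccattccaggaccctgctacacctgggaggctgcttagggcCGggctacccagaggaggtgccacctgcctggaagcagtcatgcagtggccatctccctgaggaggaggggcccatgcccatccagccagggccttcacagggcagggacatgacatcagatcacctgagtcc
The windows lie at chr4:144058875-144059124 (plus strand), chr2:153649199-153649448 (plus strand), chr15:102004343-102004592 (minus strand) and chr2:103411848-103412097 (plus strand). They hold 1, 21, 3 and 2 CpG. Over windows of 300 bases (250 before and 50 after the start) the same genes have 2, 30, 6 and 3 CpG, where the median of 27025 RefSeq promoters is 7, and 94.2% hold at least 1. Genes tested below are richer, with a median of 22 (quartiles 15 and 29) among the 77.8% that have a window. Beside these, Pramel4, Krt8 and Elf5 are low and Dnmt3b is just above the upper quartile. The letters TATAAA, searched on both strands, occur in the 300-base Krt8 window, as in 14.2% of all promoters and 6.67% of those of tested genes. They do not lie within the 250 bases of Krt8 shown above.

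The labels were checked on defining markers first, and all 3 KO E5.5 libraries went against theirs in part. The FPKM of 14 trophectoderm markers summed to 2320 to 4120 in the KO E5.5 libraries, against 100 to 151 in WT E5.5 libraries, 72.8 to 280 in KO ICMs and 163 to 1340 in WT ICMs. In 12 of the 14 every KO E5.5 library was above every WT one, where 22.6% of all tested genes were so. Extraembryonic ectoderm markers (7 genes) summed to 75 to 224 in KO E5.5 libraries against 7.62 to 9.75 in WT, with 5 of 7 not overlapping. Epiblast markers were present but lower. The sum of 9 core pluripotency genes was 476 to 847 against 1730 to 1870 in WT, and that of 12 formative genes 194 to 396 against 1290 to 1410. In 6 of the 9 and 9 of the 12 every KO library was below every WT one, where 25.4% of all tested genes were so. Visceral endoderm (5 genes, 2.6 to 14.7 in KO, 2.46 to 4.75 in WT) and blood or maternal markers (5 genes, 4.93 to 14.3 in KO, 9.6 to 19.9 in WT) were low at E5.5 in both genotypes. Values existed for only 5 of 15 listed markers in each of these 2 lists, so their low sums say little about either tissue. For trophectoderm they existed for 14 of 21 and for extraembryonic ectoderm for 7 of 15. Since all 3 KO E5.5 libraries carried the trophoblast signal, no result could be given without it, and its part in the results below was not tested. Trophectoderm sums of up to 1340 in WT ICMs lay well above those of WT E5.5 libraries. The part of that signal in WT falls of trophectoderm genes, and in KO changes opposite to them, was not tested either. In such pieces of tissue, fewer cells of a type and less RNA per cell cannot be told apart.

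KO ICM libraries also stood apart by how many genes reached 1 FPKM. They had 4388 ± 659.9 such genes (SD, n = 7), lowest in libraries 1, 4 and 6 with 3628, 3642 and 3883. KO E5.5 libraries had 5650 ± 223.7 (SD, n = 3), a gain of 1262 genes (exact permutation test, two-sided, p = 0.01667, the smallest possible for 3 against 7). WT libraries went from 5391 ± 219.8 (SD, n = 7) to 5776 ± 34.3 (SD, n = 3). The KO change thus starts from libraries in which many genes were low or listed at 0, and the median of all 5604 tested genes rose by 1.08 on the log2(FPKM + 1) scale (0.43 in WT). List medians below are read against these values, and list counts against the shares of all genes given next.

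Many of the genes that changed in WT embryos were also called without Rbbp5, in shares that rest on the scaling. Genes were tested with limma, which fits linear models and moderates their variance across genes, on log2(FPKM + 1), and called at a Benjamini-Hochberg adjusted p under 0.05, so log2 changes of low genes are understated. In KO embryos 2717 of 5604 tested genes differed between the stages, 2231 higher at E5.5 (39.8%) and 486 lower (8.67%). In WT embryos 2247 of 6022 were higher (37.3%) and 1141 lower (18.9%). Of 2021 genes that rose in WT and could be tested in all 3 fits, 1427 (70.6%) rose in KO too, where 39.6% of all genes did so. Of 1093 that fell in WT, 370 (33.9%) fell in KO, where 8.82% of all genes did so. Under quantile normalization the shares of WT rises and WT falls called in KO were alike, at 44.6% and 45.6% (17.7% and 16.7% of all genes), and under median ratio scaling they were 47.7% and 42.0% (19.1% and 13.8%). Without KO ICM libraries 1, 4 and 6 they were 71.7% and 47.5% (39.6% and 12.5%). Read the other way, 65.7% of the 2171 KO rises and 76.4% of the 484 KO falls were also called in WT. Across the 5489 genes the 2 stage changes correlated with r = 0.68 and rho = 0.65, a description over genes, which are not independent replicates. The balance of rises and falls rests on the scaling. Under quantile normalization the KO fit gave 1009 higher (18.0%) and 922 lower (16.5%) with a median of 0.01, under median ratio scaling 1098 (19.6%) and 762 (13.6%) with a median of 0.36, and without KO ICM libraries 1, 4 and 6 (chosen for their low number of genes) 2307 (39.8%) and 707 (12.2%). In all 4 of these analyses 849 genes were higher and 455 lower. The KO libraries of the 2 stages did not overlap for 2116 genes higher at E5.5 (37.8%) and 393 lower (7.01%).

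**Figure D1:**
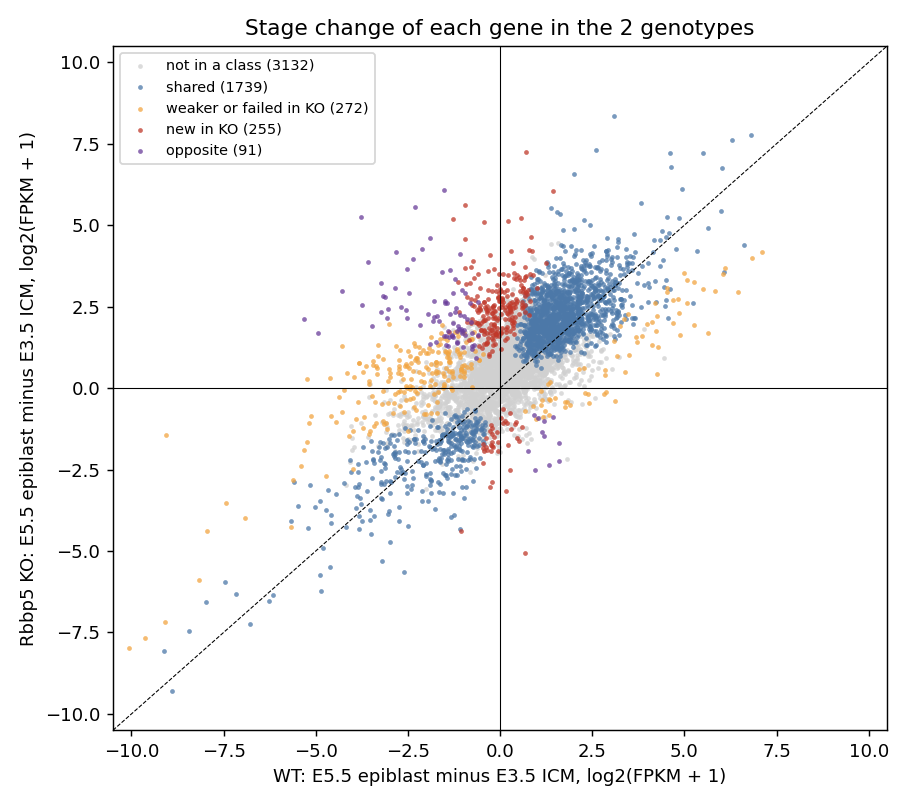
Each point is 1 of 5489 genes, with the WT stage change on the x axis and the KO stage change on the y axis, both E5.5 epiblast minus E3.5 ICM in log2(FPKM + 1). Shared changes (blue) lie along the dashed line of equality, weaker ones (orange) toward the x axis, new ones (red) along the y axis and opposite ones (purple) in the other quadrants.

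The change of each gene was sorted with a test of the difference itself, the KO stage change minus the WT stage change over all 20 libraries. This difference was called in 827 of 5917 genes, 627 higher in KO (10.6%) and 200 lower (3.38%). Of the 5489 genes, 1396 rises and 343 falls were shared, meaning called in both genotypes without a called loss. In 66 WT rises and 206 WT falls the KO change was weaker or failed. New in KO were 216 rises and 39 falls, and 80 genes that fell in WT rose in KO while 11 did the reverse. For 548 rises and 464 falls called in WT alone, and 448 rises and 64 falls called in KO alone, the difference was not called, so they are not shown to differ. The direction of the difference also rests on scaling, with 407 higher (6.88%) and 398 lower (6.73%) under quantile normalization, and 288 higher and 170 lower in all 4 analyses. Leaving out 1 library moved the count of 827 to between 458 (without KO E5.5 library 1) and 1034, with 489 and 496 without WT E5.5 libraries 1 and 2.

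The classes differed in where the genotypes stood apart. The 66 weaker rises began level (median KO minus WT of -0.01 at the ICM) and ended with all 66 below WT at E5.5, with a median of -2.24. The 216 new rises began low, with 212 below WT at the ICM (median -1.17), and ended above it (median 1.21), and in 107 of them the gap at the ICM was the larger. The 206 weaker falls were lower in KO ICMs (median -0.94) and higher in KO E5.5 libraries (median 1.56). These levels come from the libraries that defined the classes and are given as a description.

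**Figure D2:**
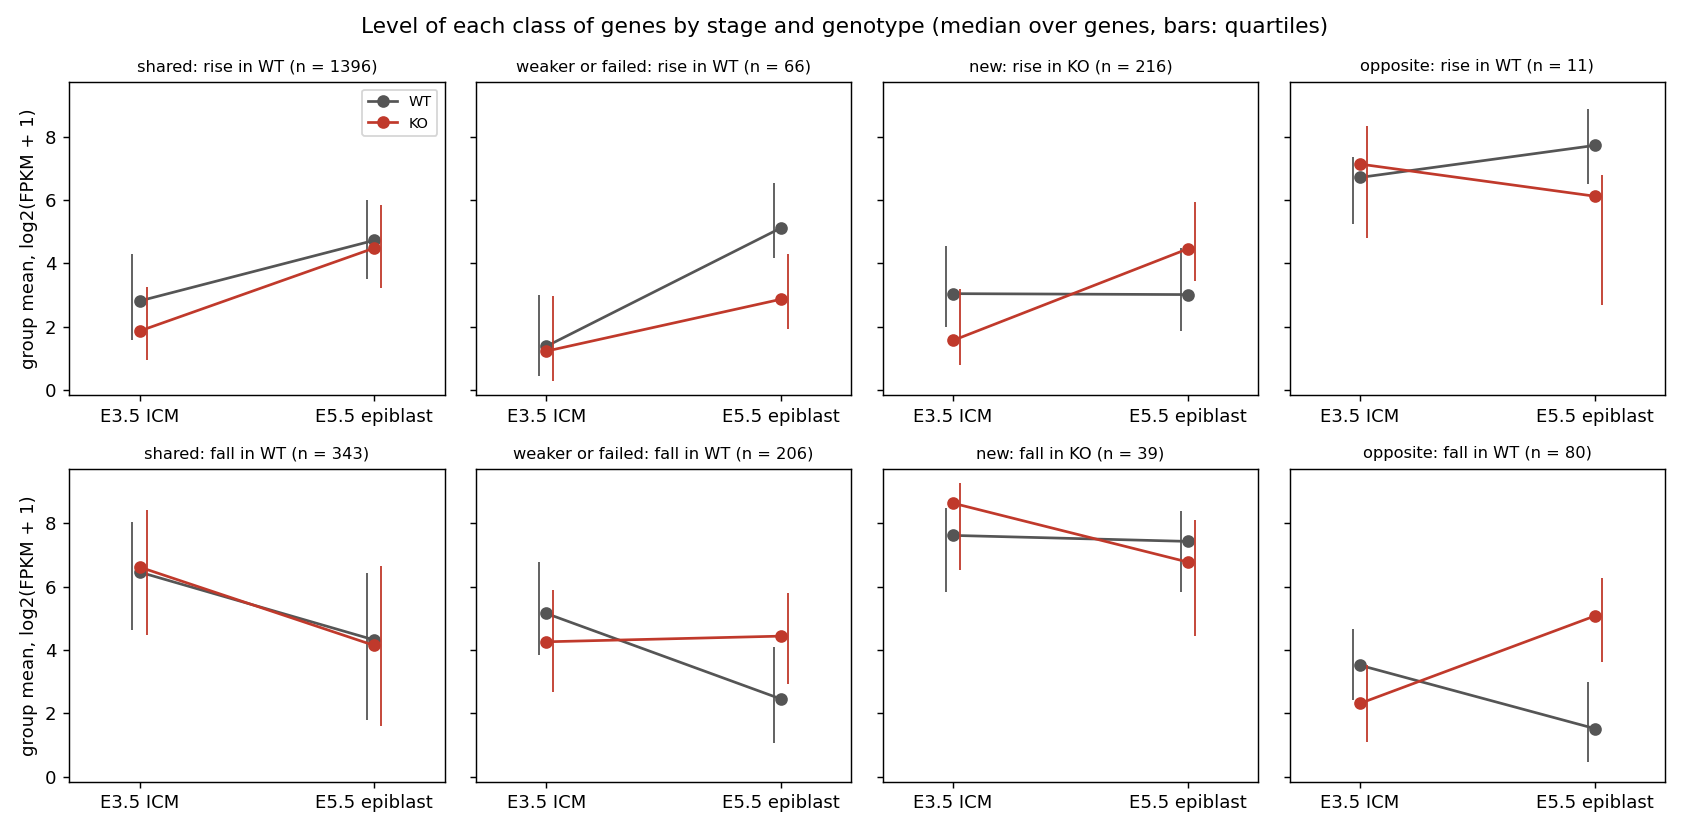
Median over genes of the group mean in log2(FPKM + 1) at E3.5 and E5.5, for WT (grey) and KO (red), with vertical bars for the quartiles over genes. Upper panels hold rises and lower panels falls; weaker rises part at E5.5, while new rises in KO begin below WT and end above it.

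Glycolytic genes rose in KO embryos throughout. All 16 tested genes of glucose uptake, glycolysis and lactate export rose, with a median log2 change of 4.09 beside 1.08 for all genes, and 15 of 17 rose in WT (median 2.85). Under quantile normalization 14 and under median ratio scaling 15 of the 16 were higher. Eno1, the enolase, read 3627, 4207 and 3666 FPKM in the KO E5.5 libraries and 4.17 to 49.9 FPKM (median 38.4) in the 7 KO ICMs. All 3 E5.5 values lay far above every ICM, with a log2 change of 7.22 ± 0.59 (SE, adjusted p = 1.7e-06), and WT E5.5 libraries were alike at 4093, 3609 and 4294 FPKM. Pfkl, a phosphofructokinase subunit at the committing step, had 254, 240.2 and 198 FPKM after 0 to 0.56 FPKM (median 0.169) in the ICM, a change of 7.62 ± 0.42 (SE, adjusted p = 3.2e-08). Pgk1 (phosphoglycerate kinase) changed by 7.21 ± 0.82 (SE, adjusted p = 2.5e-05) and Ldha, which makes lactate, by 6.10 ± 0.80 (SE, adjusted p = 6.9e-05). None of these 4 had a called difference from WT. Of 17 members tested for the difference, 2 were called higher and 1 lower, which became 1 and 5 under quantile normalization and 2 and 2 without KO ICM libraries 1, 4 and 6. Slc16a3, a lactate exporter, was called lower and reached 17.6, 16.5 and 13 FPKM in KO against 117, 129.8 and 101 in WT E5.5 libraries. Its KO change of 3.99 ± 0.34 was smaller than the WT change of 6.84 ± 0.25, a difference of -2.85 ± 0.37 (SE, adjusted p = 1.7e-05). Hk1, the first hexokinase, did the reverse, with 8.21, 11.1 and 7.24 FPKM after 0 to 0.641 FPKM (median 0.314), and its difference of 2.24 ± 0.49 (SE, adjusted p = 0.0038) was not called under quantile normalization.

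Genes of growth and DNA replication rose in both genotypes as well. Of 12 growth and translation genes 10 rose in KO (9 in WT) with a median of 1.73, though only 5 passed under median ratio scaling. Mycn, a growth-promoting transcription factor, stood at 65, 35.7 and 54.3 FPKM in KO E5.5 libraries and 0 to 2.17 FPKM (median 0) in KO ICMs, a change of 5.43 ± 0.49 (SE, adjusted p = 3.9e-06) beside 5.98 ± 0.29 in WT. The groups did not overlap. Ncl (nucleolin, for ribosome assembly) changed by 2.28 ± 0.27 (SE, adjusted p = 3.4e-05) and Eif3a, an initiation factor subunit, by 2.62 ± 0.32 (SE, adjusted p = 3.9e-05). Of 32 replication genes 19 rose in KO and 22 in WT, with none lower in either. The KO count was 11 without E5.5 library 3 and 11 under median ratio scaling. Mcm6, a subunit of the replicative helicase, had 261, 187 and 217 FPKM after 6.21 to 31.7 FPKM (median 13.5), a change of 3.93 ± 0.46 (SE, adjusted p = 2.8e-05). Fen1, a flap endonuclease, changed by 3.66 ± 0.54 (SE, adjusted p = 1.6e-04). Mitotic regulators rose in 16 of 25 in KO, but in 9, 10 and 10 without E5.5 library 1, 2 or 3 and in 7 under median ratio scaling. Pttg1 (securin) fell in both genotypes, by 3.92 in KO and 3.43 in WT on the log2 scale, as did Ube2c, an enzyme of the anaphase-promoting complex pathway (-2.47 ± 0.30 (SE, adjusted p = 4.1e-05) in KO).

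Large falls of normal development also took place without Rbbp5. Of 6 tested Pramel genes, a family of the preimplantation embryo, 4 fell in KO (5 of 7 in WT), with a median of -6.44, and the count was 4 under every scaling. Pramel4 read 0.124, 0.517 and 0.545 FPKM in KO E5.5 libraries against 124 to 415 FPKM (median 274) in KO ICMs, a log2 change of -7.45 ± 0.41 (SE, adjusted p = 3.6e-08). Its promoter, shown above, is poor in CpG. Pramel7 went to 0.264, 0.26 and 0.576 FPKM from 56.1 to 335 FPKM (median 125), and Pramel5 to 0.0538, 0.68 and 0.88 from 57.6 to 259 FPKM (median 122). No KO library of 1 stage overlapped the other for these genes, and no difference from WT was called. Sycn and Crxos1 fell furthest among the named genes, with changes of -9.30 ± 0.34 (SE, adjusted p = 1.1e-09) and -8.07 ± 0.32 (SE, adjusted p = 1.9e-09). Sycn was at 0.626, 0.842 and 0 FPKM in KO E5.5 libraries and listed at 0 in all 3 WT ones. Pemt, which makes phosphatidylcholine, changed by -5.95 ± 0.42 (SE, adjusted p = 5.4e-07) in KO and -7.45 ± 0.53 in WT.

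Most tested subunits of the respiratory chain fell in KO embryos. Of 60 tested nuclear-encoded subunits 37 fell in KO and 8 rose, with a median of -1.10 where all genes had 1.08. In WT 30 fell and 4 rose (median -0.47), and 29 changes were shared. Between 34 and 46 fell under the other scalings. Cox8a, of cytochrome c oxidase, read 1170, 680.3 and 986 FPKM after 3111 to 6429 FPKM (median 4527), a change of -2.27 ± 0.23 (SE, adjusted p = 1.1e-05) with no overlap, and WT E5.5 libraries were at 745, 737 and 598. Uqcrb of complex III changed by -2.24 ± 0.25 (SE, adjusted p = 2.3e-05). Ndufa7 of complex I fell further than in WT, by 2.14 against 0.53 (difference -1.61 ± 0.30 (SE, adjusted p = 0.001)). KO ICMs had begun higher, with summed subunits of 34700 to 59800 FPKM against 20200 to 29800 in WT ICMs, while the E5.5 sums were 15200 to 20300 and 14200 to 15300. Proteasome subunits were split, with 9 higher and 11 lower of 31 in KO (9 and 17 in WT), and their median of -0.36 was 0.04 under quantile normalization. Psma5 changed by -1.50 ± 0.17 (SE, adjusted p = 2.6e-05). The metallothioneins Mt1 and Mt2, which bind zinc and copper, changed by -2.61 ± 0.41 (SE, adjusted p = 2.6e-04) and -2.86 ± 0.43 (SE, adjusted p = 1.8e-04), close to the WT values of -2.70 ± 0.34 and -2.98 ± 0.27.

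**Figure D3:**
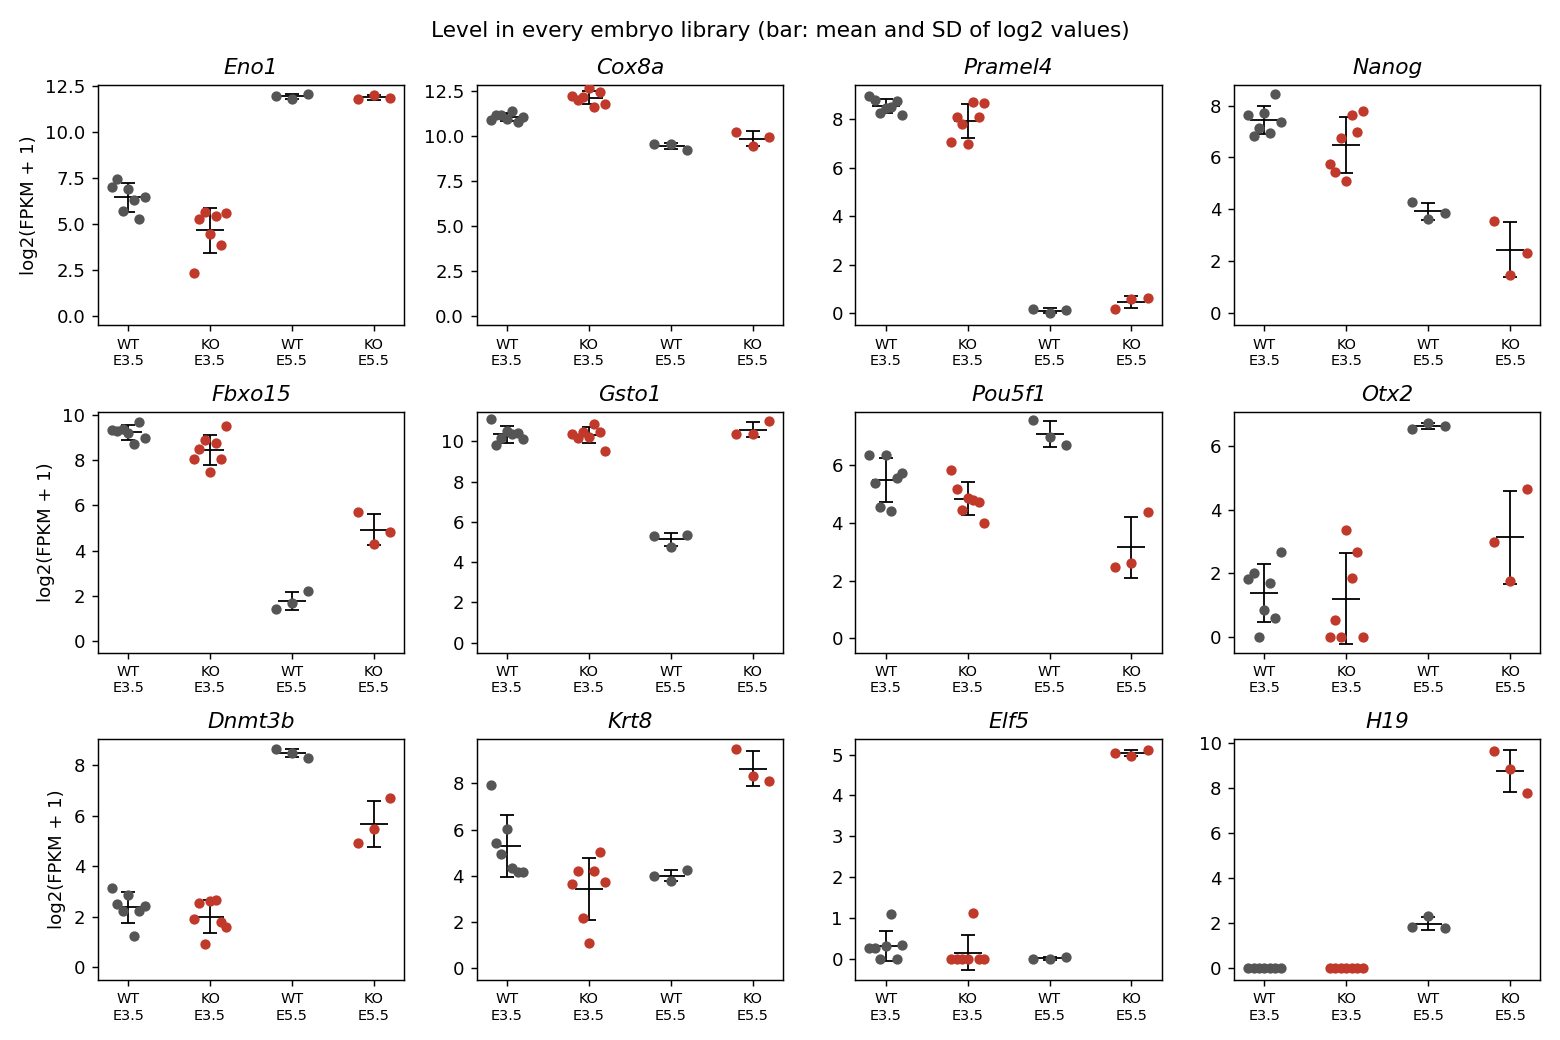
Level in log2(FPKM + 1) of 12 genes in each of the 20 embryo libraries, grouped by stage and genotype (WT grey, KO red), with the mean and SD of the log2 values. Eno1, Cox8a, Pramel4 and Nanog move alike in both genotypes, Fbxo15, Gsto1, Otx2 and Dnmt3b move less in KO, and Krt8, Elf5 and H19 are high only in the KO E5.5 libraries among those of E5.5.

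Naive genes fell in part. Of 14 tested naive genes 6 fell in KO (7 without KO ICM libraries 1, 4 and 6, 9 under quantile normalization) and 11 fell in WT, with medians of -1.06 and -2.71. Nanog, a naive factor, had 10.8, 1.73 and 3.88 FPKM in KO E5.5 libraries after 32.7 to 221 FPKM (median 106), a change of -4.06 ± 0.63 (SE, adjusted p = 2.2e-04) with no overlap. The WT libraries of E5.5 read 18.2, 11.4 and 13.4, and the difference was not called. Tbx3 and Klf2, also naive factors, changed by -2.34 ± 0.54 (SE, adjusted p = 0.0031) and -2.75 ± 0.57 (SE, adjusted p = 0.0016), and Nr5a2, a nuclear receptor that acts on Pou5f1, by -2.16 ± 0.40 (SE, adjusted p = 7.9e-04). For some other members the WT fall was weaker or failed in KO. Fbxo15, a marker that Pou5f1 and Sox2 activate, was at 50.5, 18.6 and 26.9 FPKM in KO E5.5 libraries, all above the WT values of 1.7, 2.22 and 3.61. It fell from 176 to 718 FPKM (median 359.6), by 3.52 against 7.44 in WT, a difference of 3.92 ± 0.49 (SE, adjusted p = 1.2e-05). Klf5, which also acts in trophectoderm, kept 13.8, 20.3 and 13.8 FPKM where WT E5.5 libraries had 0.457, 0.0861 and 0.301, a difference of 4.11 ± 0.49 (SE, adjusted p = 6.4e-06). Its own KO fall of -1.07 ± 0.40 (SE, adjusted p = 0.039) was not called without KO ICM library 2, 5 or 7 or any KO E5.5 library (-1.24 to -0.95). Esrrb, an orphan nuclear receptor also known in extraembryonic ectoderm, kept 1.35, 5.59 and 4.89 FPKM against 0.0739, 0 and 0.0452, and its difference of 2.92 ± 0.72 (SE, adjusted p = 0.0091) was not called under quantile normalization or median ratio scaling. Klf4 was at 1.03, 1.29 and 0.28 FPKM after 0 to 6.59 FPKM (median 3.18) and did not pass in KO (adjusted p = 0.16).

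Most formative and some core pluripotency genes rose in KO, but the difference from WT was called lower in several. Of all tested genes 39.8% rose in KO and 37.3% in WT, and 3.38% had a lower difference. Of 9 formative genes 7 rose in KO with a median of 2.62 (9 of 10 in WT, median 4.59), and 5 of 10 had a lower called difference. The KO count was 4 without E5.5 library 3 and the count of lower differences 1 to 3 without any of WT E5.5 libraries 1, 2 and 3, KO E5.5 libraries 1 and 2 or WT ICM library 4. Core genes rose in 5 of 9 in KO (median 1.49) and in 9 of 9 in WT (median 2.74), with 3 lower differences. The core rises in KO were 3 without KO E5.5 library 3 and 2 under median ratio scaling, where 19.6% of all genes rose. That count is near the share of all genes. The lower differences were 1 without KO E5.5 library 1 and 7 under quantile normalization (6.73% of all genes). Dnmt3b, a de novo DNA methyltransferase, read 28.9, 43.1 and 102 FPKM in KO E5.5 libraries after 0.889 to 5.27 FPKM (median 2.8). Every KO E5.5 value was above the ICMs and below the WT E5.5 values of 395, 361 and 315. Its KO change was 3.68 ± 0.54 (SE, adjusted p = 1.5e-04) and the difference -2.43 ± 0.63 (SE, adjusted p = 0.013), which without KO E5.5 library 1 was -2.04 and not called.

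Otx2, a homeobox factor of the formative epiblast, had 6.85, 2.38 and 24.2 FPKM in KO E5.5 libraries, low in library 2 and high in library 3, and 0 to 9.36 FPKM (median 0.449) in KO ICMs. The groups overlapped, and the KO change of 1.92 ± 0.84 (SE, adjusted p = 0.071) did not pass, where WT reached 92.8, 105 and 99.2. The difference of -3.34 ± 1.03 (SE, adjusted p = 0.033) was not called without KO E5.5 library 1 (-3.26) or 2 (-2.65), WT E5.5 library 1 (-3.38), 2 (-3.30) or 3 (-3.34) or WT ICM library 4 (-3.25). Dnmt3a, the second de novo methyltransferase, read 28.5, 17.7 and 94.4 FPKM after 0.947 to 11.4 FPKM (median 5.89), a change of 2.62 ± 0.67 (SE, adjusted p = 0.0064) that was 1.94 and not called without E5.5 library 3. Its difference of -2.46 ± 0.73 (SE, adjusted p = 0.026) was not called without any 1 of the 6 E5.5 libraries except KO library 3 (range -2.55 to -1.96). Lef1, a factor of the Wnt pathway, rose by 3.53 ± 0.44 in KO and 4.99 ± 0.24 in WT, and its difference of -1.45 ± 0.47 (SE, adjusted p = 0.043) was not called without any 1 WT ICM or WT E5.5 library, KO ICM library 6 or KO E5.5 library 1 or 2 (-1.53 to -0.996). Zic5, a zinc finger factor, was steadier, at 4.12, 6.61 and 6.47 FPKM against 17.6, 19.3 and 21.3 in WT, with a KO change of 2.63 ± 0.34 (SE, adjusted p = 5.2e-05) and a difference of -1.58 ± 0.36 (SE, adjusted p = 0.0058). Pim2, a kinase, rose to 12.3, 21.8 and 53.1 FPKM where WT had 525, 419 and 390.0, but the difference of -2.52 ± 0.88 (SE, adjusted p = 0.058) did not pass.

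Pou5f1 (Oct4), the central pluripotency factor, went opposite ways. It stood at 4.57, 5.07 and 19.9 FPKM in KO E5.5 libraries after 15.2 to 56.4 FPKM (median 26.8), with library 3 inside the ICM range, and at 190.4, 126 and 103 in WT E5.5 libraries after 20.3 to 81.7 FPKM (median 46.9). The KO change was -1.69 ± 0.50 (SE, adjusted p = 0.013), which without E5.5 library 1 was -1.36 and without library 2 was -1.42, neither called. The WT change was 1.60 ± 0.41 (SE, adjusted p = 0.0044) and the difference -3.29 ± 0.66 (SE, adjusted p = 0.002). Utf1, a chromatin factor of pluripotent cells, rose to 207, 293 and 391 FPKM from 39.9 to 223 FPKM (median 97.2) in KO, a change of 1.64 ± 0.41 (SE, adjusted p = 0.0057) that was 0.73 and not called under median ratio scaling. Sox2 changed by 0.24 ± 0.49 (SE, adjusted p = 0.7) in KO and 1.13 ± 0.32 (SE, adjusted p = 0.0088) in WT, with no called difference (adjusted p = 0.31).

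Among signals, 6 of 12 genes of the Nodal pathway were higher in KO, where 39.8% of all genes were, and 5 of 11 in WT, where 37.3% were. The KO count was 3 without E5.5 library 3 and 2 under quantile normalization, and 3 higher and 0 lower differences became 1 and 4 there. Nodal itself, the ligand, was listed at 0 in all 7 KO ICMs and read 1.05, 1.32 and 11.9 FPKM at E5.5, with most in library 3, against 15.8, 8.53 and 15.9 in WT (adjusted p of the KO change 0.0044, not called under quantile normalization). Skil, a brake on the pathway, changed by 2.01 ± 0.41 (SE, adjusted p = 0.0014) in KO and 2.43 ± 0.27 in WT. Pcsk6, a protease that matures Nodal, fell in WT and not in KO, with 16.3, 11.6 and 11.9 FPKM in KO E5.5 libraries against 0.368, 0.658 and 0.88 and a difference of 3.42 ± 0.54 (SE, adjusted p = 1.5e-04). Of Wnt pathway genes 6 of 9 rose in KO (4 under quantile normalization), among them Tcf7l1, a repressor of pluripotency genes (3.21 ± 0.64 (SE, adjusted p = 0.0013), WT 4.01 ± 0.41). Fgf4, the ligand that the epiblast makes, was at 2.14, 1.11 and 7.0 FPKM in KO E5.5 libraries and 17, 14.3 and 13.7 in WT, where its difference of -2.45 ± 0.84 (SE, adjusted p = 0.055) did not pass. Its receptor Fgfr2, a trophoblast and primitive endoderm receptor, went the other way: 91.2, 21.5 and 49.2 FPKM in KO E5.5 libraries after 0.16 to 12.8 FPKM (median 5.93), against 0.247, 1.15 and 0.773 in WT. Its KO change was 2.92 ± 0.69 (SE, adjusted p = 0.0036), its WT change -2.46 ± 0.49 (SE, adjusted p = 8.2e-04) and the difference 5.38 ± 0.89 (SE, adjusted p = 2.6e-04). FGF and ERK genes rose in 3 of 5 in KO, and in 1 without any 1 E5.5 library.

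Several WT rises fell short well outside the pluripotency lists. Armcx1 was listed at 0 in all ICM libraries of both genotypes and read 4.39, 2.28 and 4.49 FPKM in KO E5.5 libraries against 16.3, 19.1 and 18.7 in WT (adjusted p of the difference 1.6e-04). Ifitm3, an interferon-induced membrane protein, had 14.2, 17.8 and 60.4 FPKM against 142, 116 and 137, and its KO change of 0.42 ± 0.50 (SE, adjusted p = 0.5) did not pass, with a difference of -3.83 ± 0.75 (SE, adjusted p = 0.0015). Mif, a cytokine, had a WT rise of 1.32 ± 0.14 and a KO change of -0.33 ± 0.21 (SE, adjusted p = 0.2), having begun at 1590 to 2849 FPKM (median 2617) in KO ICMs. In 47 further WT rises with a called lower difference the KO mean over both stages was under the 1 FPKM filter, so that KO change was not tested. Among them Nnat, an imprinted gene, read 1.37, 1.98 and 4.43 FPKM in KO E5.5 libraries and 26.3, 19.8 and 26.3 in WT (adjusted p of the difference 1.3e-05). Sox4 read 0.0965, 0.307 and 1.47 against 7.45, 8.85 and 5.33 (1.2e-04) and Bcl11a, a zinc finger factor, 0.418, 0.438 and 3.21 against 15.2, 14 and 11.1 (3.7e-05).

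Among WT falls that failed, several genes stayed near ICM levels. Gsto1 (a glutathione transferase) measured 1310, 1334 and 2067 FPKM in KO epiblasts and 741 to 1844 FPKM (median 1308) in KO ICMs, overlapping, while WT E5.5 libraries were at 38.2, 25.5 and 39.8. The KO change was 0.29 ± 0.25 (SE, adjusted p = 0.35), the WT change -5.23 ± 0.24 (SE, adjusted p = 2.2e-09) and the difference 5.52 ± 0.36 (SE, adjusted p = 6.1e-10). Ly6a, a surface protein, kept 286, 214 and 214 FPKM where WT had 0.164, 0 and 0.306, a difference of 7.61 ± 0.88 (SE, adjusted p = 4.2e-06). Sdc4, a heparan sulfate proteoglycan, kept 903, 203 and 389 against 24, 29.7 and 48.7 (difference 4.92 ± 0.78 (SE, adjusted p = 1.8e-04)), and Ckb, a creatine kinase, 386, 214 and 196 against 28.7, 17.9 and 17.9 (5.58 ± 0.74 (SE, adjusted p = 2.3e-05)). Elf3, an epithelial ETS factor, was at 119.6, 10.2 and 16.4 in KO E5.5 libraries and 8.21, 4.42 and 3.86 in WT (4.61 ± 1.10 (SE, adjusted p = 0.0071)). The values stand beside the trophoblast markers of the same libraries, whose part in these differences was not tested.

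Rises that WT embryos did not show were led by trophoblast genes. Of 13 tested trophectoderm markers 12 rose in KO and 1 fell, with a median of 4.59 (none higher and 6 of 11 lower in WT, median -1.90), and the difference was higher in 11 of 12. Between 9 and 12 rose under every scaling and without any 1 library. Krt8, a keratin of simple epithelia, read 718, 319 and 275 FPKM in KO E5.5 libraries, highest in library 1, after 1.13 to 31.8 FPKM (median 12.3) in KO ICMs, and 14.9, 12.6 and 18 in WT E5.5 libraries. The KO groups did not overlap, and the change was 5.20 ± 0.71 (SE, adjusted p = 8.6e-05) with a difference of 6.49 ± 1.04 (SE, adjusted p = 1.8e-04). Its partner Krt18 had 1310, 664 and 678 FPKM and a change of 6.05 ± 0.54 (SE, adjusted p = 3.9e-06), and Krt19 had 266, 154 and 149.7 and 7.24 ± 0.50 (SE, adjusted p = 3.7e-07). Cldn4, a tight junction claudin, rose by 4.59 ± 0.52 in KO and changed by -1.90 ± 0.76 (SE, adjusted p = 0.046) in WT, a difference of 6.50 ± 0.96 (SE, adjusted p = 8.4e-05). Elf5, a transcription factor of trophoblast stem cells, was at 31.6, 30.1 and 33.4 FPKM in the 3 KO E5.5 libraries, nearly level, after 0 to 1.17 FPKM (median 0) in KO ICMs. In WT E5.5 libraries it read 0, 0 and 0.0451, under the filter, and the difference was 5.18 ± 0.41 (SE, adjusted p = 9.3e-09).

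All 6 tested extraembryonic ectoderm markers rose in KO (5 without E5.5 library 3), with a median of 3.38, and 5 of 6 had a higher difference, 3 without KO E5.5 library 1 or 3. Wnt7b, a Wnt ligand, read 9.37, 7.8 and 6.85 FPKM at E5.5 after 0 to 2.18 FPKM (median 0) in KO ICMs. Rhox4a, a homeobox gene of the placental Rhox cluster, read 28.1, 42.6 and 47.1 FPKM and was listed at 0 in every ICM of both genotypes (adjusted p of the KO change 4.9e-07, of the difference 6.1e-10). Rhox4c and Rhox4e had 12.4, 19 and 25.2 and 17.6, 29.1 and 36 FPKM, and near-identical copies in this cluster can share reads. Rhox6 had 48.1, 17.1 and 38.7 FPKM after 0 to 3.13 FPKM (median 0), a change of 4.51 ± 0.60 (SE, adjusted p = 7.1e-05). Wls, which carries Wnt proteins to the surface, was listed at 0 in all KO ICMs and read 38.8, 21.1 and 24.8 at E5.5 against 1.87, 1.17 and 1.96 in WT (adjusted p of the difference 6.4e-07).

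Imprinted genes rose in 7 of 13 in KO with none lower, where 39.8% of all genes rose and 8.67% fell. In WT 6 were higher and 3 lower of 11. Under quantile normalization and median ratio scaling 5 rose in KO (18.0% and 19.6% of all genes). A higher difference was called in 7 of 13, where 10.6% of all genes had one. It became 3, 4 and 4 without KO E5.5 library 1 or 2 or WT E5.5 library 3. H19, a maternally expressed RNA, was listed at 0 in all 14 ICMs and read 780.1, 455 and 217 FPKM in KO E5.5 libraries against 2.57, 3.99 and 2.45 in WT (adjusted p of the difference 6.1e-10). Its neighbour Igf2, a paternally expressed growth factor, read 59.6, 56.8 and 68.5 FPKM after 0 to 6.87 FPKM (median 1.55), with 1.14, 0.92 and 1.07 in WT E5.5 libraries. Its KO change was 4.58 ± 0.67 (SE, adjusted p = 1.6e-04) and the difference 5.53 ± 0.83 (SE, adjusted p = 1.0e-04). Both genes are known to be expressed in trophoblast. Peg3, another paternally expressed gene, rose in both genotypes, by 3.29 ± 0.46 and 4.19 ± 0.33.

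Several other genes with a higher called difference, not all of them in the new class, were not markers on these lists. Anxa5, a phospholipid-binding protein, read 93.9, 141 and 168 FPKM after 0 to 8.18 FPKM (median 2.33), against 4.04, 1.86 and 4.16 in WT E5.5 libraries, a difference of 6.57 ± 1.05 (SE, adjusted p = 1.8e-04). Ddah1 and Gsta1 fell in WT and rose in KO. Ddah1 had 502, 322 and 344 FPKM against 5.49, 7.57 and 3.23 (difference 6.17 ± 0.61 (SE, adjusted p = 5.3e-07)) and Gsta1, a glutathione transferase, 304, 62.1 and 44.4 against 0.15, 0 and 0 (6.34 ± 0.78 (SE, adjusted p = 1.1e-05)). Tmsb4x and Cald1, which bind actin, rose in both genotypes and further in KO, with differences of 5.26 ± 1.08 (SE, adjusted p = 0.0024) and 4.69 ± 0.58 (SE, adjusted p = 1.0e-05). Ash2l, a partner of Rbbp5 in the H3K4 methyltransferases, read 68.5, 116 and 76.7 FPKM after 7.56 to 38.5 FPKM (median 16.5), while WT was at 44.2 to 111 FPKM (median 62.7) in ICMs and 54.1, 31.6 and 87 at E5.5. Its difference was 2.49 ± 0.58 (SE, adjusted p = 0.0065), and the KO ICM, not the E5.5 epiblast, lay further from WT. Of 9 tested subunits of these complexes 3 rose in KO and 5 in WT, where 39.8% and 37.3% of all genes did. The KO count is near the share of all genes, and the difference was called in 1 of the 9.

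Genes of the amino acid response mostly rose in KO, while a smaller share of p53 targets did. Of 13 genes of serine synthesis and the amino acid response 9 rose in KO (6 in WT) with a median of 2.76. Slc3a2, part of amino acid exchangers, read 261, 260.0 and 165 FPKM after 18.4 to 59.8 FPKM (median 38.9), a change of 2.63 ± 0.36 (SE, adjusted p = 9.4e-05) against 0.33 ± 0.18 in WT and a difference of 2.30 ± 0.40 (SE, adjusted p = 4.5e-04). Asns, asparagine synthetase, read 293, 624.6 and 259.5 against 84, 26.4 and 69.5 in WT, with a difference of 4.17 ± 1.16 (SE, adjusted p = 0.019) that was not called without KO E5.5 library 2 (3.78) or WT E5.5 library 2 (3.67). Of 19 p53 targets 6 rose in KO, a smaller share than the 39.8% of all genes, and none fell (3 and 5 in WT). Mdm2, which degrades p53 and is its target, read 75.4, 60.7 and 169 FPKM after 7.31 to 27.3 FPKM (median 15.7), a change of 2.56 ± 0.49 (SE, adjusted p = 0.001) that was new by its difference of 2.73 ± 0.59 (SE, adjusted p = 0.0037). Bax, a cell death effector, rose in both genotypes, by 4.28 ± 0.64 in KO and 4.76 ± 0.30 in WT.

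New falls were few. Id3, an inhibitor of basic helix-loop-helix factors and a BMP target, dropped to 0.295, 1.97 and 22.2 FPKM from 28.7 to 442 FPKM (median 196) in KO, while WT held 302, 237 and 205 at E5.5. The KO groups did not overlap, with library 1 lowest, and the change was -5.06 ± 0.84 (SE, adjusted p = 3.7e-04) with a difference of -5.74 ± 0.98 (SE, adjusted p = 4.0e-04). Its paralog Id2, on the trophectoderm list, did the reverse, at 959, 783 and 873 FPKM after 8.29 to 145 FPKM (median 19.5), a KO change of 5.11 ± 0.67 (SE, adjusted p = 7.0e-05). The difference of 4.89 ± 1.46 (SE, adjusted p = 0.028) was not called without any 1 of the 6 E5.5 libraries (4.78 to 4.96). Uchl1, a deubiquitinating enzyme, read 1.11, 1.63 and 14.3 FPKM after 15.7 to 73.4 FPKM (median 40.1) and 53.9, 49 and 42.8 in WT, a difference of -3.31 ± 0.81 (SE, adjusted p = 0.0086). Prdx1, a peroxiredoxin, changed by -1.62 ± 0.23 (SE, adjusted p = 1.4e-04), and its difference of -2.14 ± 0.46 (SE, adjusted p = 0.0032) was not called under quantile normalization.

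Chromatin regulators and markers of other lineages were counted the same way. Of 9 genes of DNA methylation 5 rose in KO and 1 fell (7 and 1 in WT), with 3 rises without E5.5 library 3. The fall was that of Tet2, which oxidises methylcytosine, at -1.23 ± 0.48 (SE, adjusted p = 0.048), and it was not called without KO ICM library 2, 3, 5 or 7 or any KO E5.5 library (-1.53 to -1.02). Dnmt1, the maintenance methyltransferase, changed by 2.60 ± 0.46 (SE, adjusted p = 5.3e-04) and 2.86 ± 0.30 in KO and WT, and Tdg, a DNA glycosylase, by 3.93 ± 0.65 (SE, adjusted p = 3.5e-04) and 2.78 ± 0.51. Of 10 Polycomb genes 4 rose in KO, near the 39.8% of all genes, and 1 under quantile normalization (18.0% of all genes), and their median of 0.68 was -0.23 there. Ezh2, the methyltransferase of the repressive H3K27 mark, changed by 2.53 ± 0.48 (SE, adjusted p = 9.4e-04) beside 1.73 ± 0.29 in WT. H3K4 demethylases rose in 3 of 6 in KO and in 6 of 6 in WT, where 39.8% and 37.3% of all genes did. Under quantile normalization 1 rose in KO (18.0% of all genes). Their medians were alike, at 1.45 in KO and 1.33 in WT. The difference was called in 0 of 6 (1 lower under quantile normalization or median ratio scaling), so a weaker rise is not shown. Kdm1a was among the KO rises (2.77 ± 0.56 (SE, adjusted p = 0.0014)). Of 15 adhesion genes 9 rose in KO and 2 fell (6 and 2 in WT), with E-cadherin, Cdh1, at 89.9, 122 and 73.1 FPKM after 1.93 to 13.7 FPKM (median 9.38). Primitive endoderm markers fell in 4 of 9 in KO (2 without E5.5 library 1 or 2) and 6 of 10 in WT. Gata6, its transcription factor, reached 0, 0.0284 and 0.0756 FPKM from 4.46 to 30.7 FPKM (median 19.2), a change of -4.15 ± 0.55 (SE, adjusted p = 6.8e-05). None of 4 tested germline genes, 2 visceral endoderm and 3 blood or maternal markers passed in KO by limma, where 48.5% of all genes did either way, and at an unadjusted p under 0.05 the 3 lists held 0, 0 and 1. Under quantile normalization 2 germline genes and 1 blood marker were lower.

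**Figure D4:**
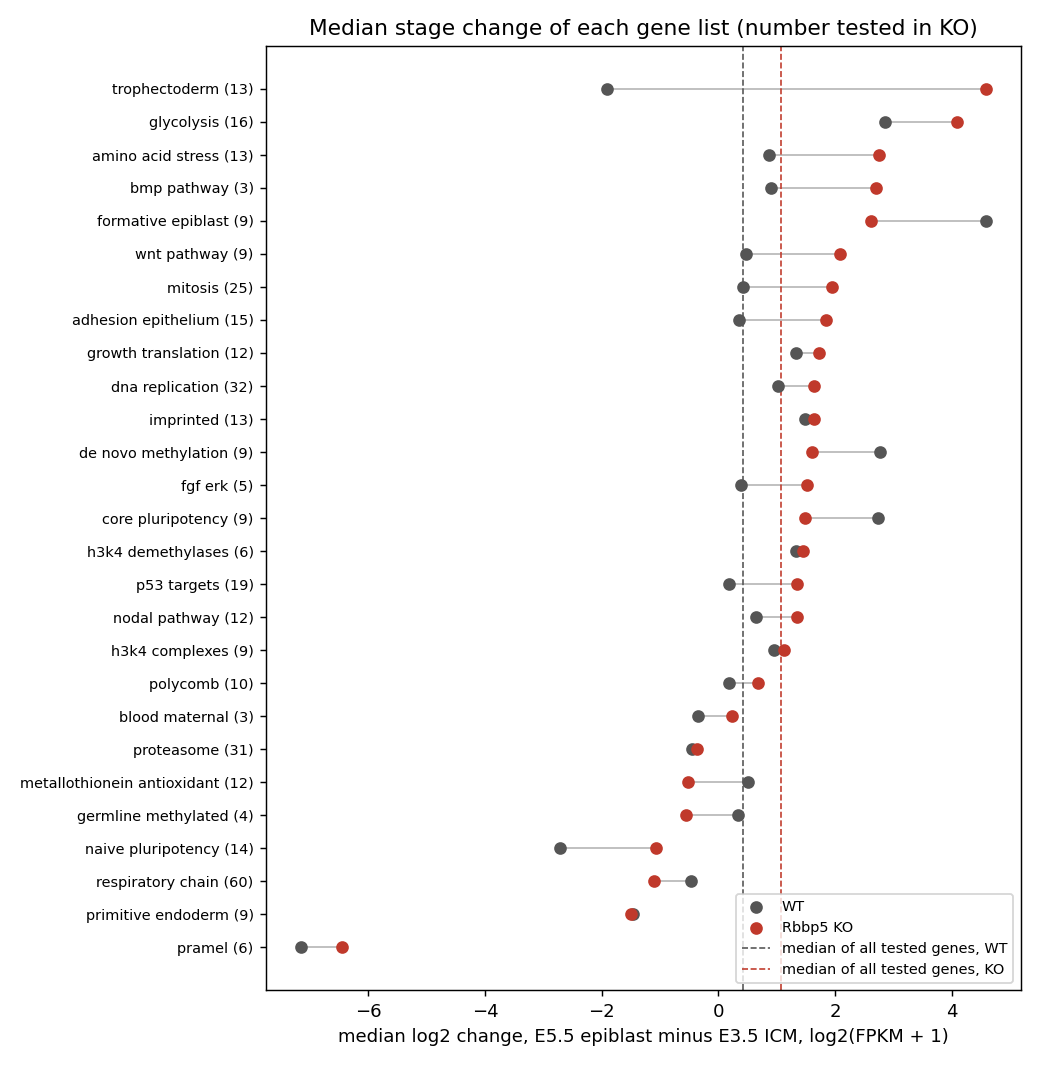
Median log2 stage change in WT (grey) and KO (red) of each gene list with at least 3 members tested in both genotypes. Extraembryonic ectoderm, Rhox and visceral endoderm lists are therefore not shown. The number of members tested in KO is in brackets, and dashed lines lie at the medians of all tested genes (0.43 and 1.08). Among the lists shown, trophectoderm has the widest gap between genotypes, at -1.90 in WT and 4.59 in KO. Primitive endoderm and proteasome lists lie close together.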

How the data were processed

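RNA was measured in single embryos, and 20 libraries were used: KO ICM (7), KO E5.5 epiblast (3), WT ICM (7) and WT E5.5 epiblast (3), each mapped by its title. The authors deposited FPKM values in 1 table of 7186 lines. Trim Galore 0.6.4, STAR 2.7.3 and the mm10 build stand in the submitters' processing notes without a role, and no source used here gives the quantifier. For 2 gene names that were repeated all 4 lines were dropped, which left 7182 genes. Values under 1e-06 FPKM (404 of 124223 above 0) show that fragments were assigned in part, so depth is unknown and its precision cannot be given. Deposited methylation tables, the single-cell, chromatin and H3K4me3 samples were not used here.

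The 3 fits were made on log2(FPKM + 1) with limma 3.58.1 in R 4.3.3 (trend, robust), over genes that averaged 1 FPKM or more in the libraries fitted: KO stages, WT stages, and the difference of the stage changes over all 20 libraries. P-values were adjusted by Benjamini-Hochberg over all tested genes and called under 0.05. Classes were counted among 5489 genes tested in all 3. A gene called in both genotypes with a called difference against WT counted as weaker, not shared. Numbers of genes at 1 FPKM or more were compared by an exact permutation test (scipy 1.17.1, Python 3.11.15).

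Members, 32 gene lists, comparisons and alternatives were chosen with earlier results of these data known, so a direction already seen there is not independent evidence. The lists of lineage onset and mitochondrial ribosome genes had no member in the table. Named genes were, for the KO change, the 12 largest log2 changes each way among called genes averaging 10 FPKM or more in the higher group. For the difference they were the 10 smallest adjusted p each way. For the new and weaker classes they were the 6 largest each way. Each list added its 4 smallest p in the KO fit and 2 in the difference, and 16 epiblast genes were always taken where tested. Predicted, pseudo, small RNA, ribosomal protein and Y-linked genes and Xist were left out. Of 144 named genes called in KO, 20 lost the call without some single library, and of 90 called for the difference, 24 did. The results give these losses for genes whose change in the fit concerned they describe. For the other flagged genes, losses of the difference are listed further below. Losses of the KO call are listed there where the class rests on it.

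Promoter windows came from RefSeq (GRCm38.p6). Only 77.8% of the genes tested in all fits had one, under the 80% set as a minimum, so CpG content by class is void. A test on simulated data shifted 50 genes by each amount. Values were drawn as independent and normal, with the same SD of a gene in every group, and only well expressed genes were shifted. In the KO data 48.5% of genes were called, far more than were shifted, so these rates need not hold for the fits above. For log2 changes of 1, -1, 2 and -2 the test recovered 12%, 14%, 64% and 66% in the KO fit on 5604 genes, with 8.24% false calls, more than the 5% aimed at. For the WT fit on 6022 genes it recovered 52%, 52%, 94% and 82% with 2.1% false calls, and for the difference on 5917 genes 8%, 4%, 52% and 64% with 0% false calls.

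Alternatives changed the pseudocount (0.1 or 5), the filter (none, or 5 FPKM), the scaling (quantile normalization or median ratios) and the variance model (empirical Bayes without robust fitting, or array weights). Others were a sex covariate, the 4 groups in 1 fit, calls of at least 2-fold, the replicate block, fits without KO ICM libraries 1, 4 and 6, and leaving out each library. Quantile normalization without those 3 libraries was chosen after seeing the data.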

Additional observations from a re-analysis of the deposited data

Results flagged for a closer look

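In 16 of 165 named genes 1 of the 7 KO ICM libraries lay apart from the other 6, by the gap to its nearest neighbour relative to the range (Dixon's 95% limit). For normally distributed values chance alone gives such a gap in about 1 of 20 groups. That rate does not apply where the other 6 libraries were all at 0, as for Car2, Dtx1, Elf5 and Rhox9. There any value above 0 passes the limit. KO ICM library 2 was above the others for Dab1 at 2.53 FPKM. KO ICM library 3 was above the others for Id1 at 2.97 FPKM, Krt19 at 1.92 FPKM and Tmsb4x at 53.9 FPKM. KO ICM library 5 was above the others for Elf5 at 1.17 FPKM. KO ICM library 7 was above the others for Car2 at 2.40 FPKM, Dtx1 at 1.14 FPKM, Mycn at 2.17 FPKM and Rhox9 at 7.33 FPKM. KO ICM library 1 was below the others for Bax at 0.139 FPKM, Cdh1 at 1.93 FPKM and Fgfr2 at 0.160 FPKM. KO ICM library 3 was below the others for Lamb1 at 0.233 FPKM. KO ICM library 6 was below the others for Dnmt3l at 0.224 FPKM, Gata6 at 4.46 FPKM and Kdm1a at 0.852 FPKM. Libraries 1 and 6 were among the 3 with few genes at 1 FPKM or more, and the part of this in their low values was not tested.

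For 90 of the 188 named genes the KO stage change differed from the WT stage change by the test of the difference itself (limma, adjusted p under 0.05). Values are the KO change minus the WT change in log2(FPKM + 1). Among WT falls that were weaker or failed in KO the difference was 7.61 for Ly6a, 5.58 for Ckb, 5.52 for Gsto1, 4.92 for Sdc4, 4.65 for Plin2, 4.61 for Elf3, 4.28 for Sord, 4.11 for Klf5, 3.92 for Fbxo15, 3.42 for Pcsk6, 3.26 for Pecam1, 2.99 for Btg2, 2.92 for Esrrb, 2.48 for Tet2, 2.40 for Wnt6, 2.07 for Calcoco2, 1.97 for Timd2, 1.89 for Pramel6 and 1.43 for Psmc2. Among WT rises that were weaker or failed in KO it was -3.96 for Mdk, -3.83 for Ifitm3, -3.51 for Gstt2, -3.49 for Bex4, -3.34 for Otx2, -3.24 for Dab1, -2.85 for Slc16a3, -2.53 for Phc1, -2.46 for Dnmt3a, -2.43 for Dnmt3b, -2.04 for Armcx1, -1.64 for Mif, -1.58 for Zic5 and -1.45 for Lef1. Among rises new in KO it was 6.57 for Anxa5, 6.55 for Krt19, 6.49 for Krt8, 5.53 for Igf2, 4.89 for Id2, 4.65 for Klhl22, 4.62 for Krt18, 3.46 for Rhox9, 2.73 for Mdm2, 2.66 for Anln, 2.49 for Ash2l, 2.30 for Slc3a2, 2.24 for Hk1, 2.19 for Smad3, 1.75 for Prc1, 1.49 for Itgb1 and 1.35 for Rrm2. Among falls new in KO it was -5.74 for Id3, -3.33 for Syce3, -3.31 for Uchl1, -2.78 for Zdhhc12, -2.77 for Ccdc160, -2.66 for Ttc32 and -2.14 for Prdx1. Among genes that fell in WT and rose in KO it was 6.50 for Cldn4, 6.34 for Gsta1, 6.17 for Ddah1, 5.38 for Fgfr2, 2.55 for Psat1 and 1.56 for Ndufa9. Among genes that rose in WT and fell in KO it was -3.29 for Pou5f1, -2.32 for Sssca1 and -2.20 for Cdc26. Among genes that changed the same way in both genotypes and were called higher for the difference it was 5.26 for Tmsb4x, 4.69 for Cald1, 4.54 for Phlda2, 4.17 for Asns and 1.80 for Pola2. Among those of them called lower it was -3.05 for Cox6b2, -1.61 for Ndufa7 and -0.93 for Psma2. Among genes under the 1 FPKM filter in WT alone it was 6.76 for H19, 5.18 for Elf5, 4.92 for Rhox6, 4.91 for Rhox4a, 4.35 for Rhox4e, 4.14 for Rhox4c, 3.75 for Wnt7b, 3.64 for Wls and 2.66 for Peg10. Among genes under the filter in KO alone it was -3.40 for Calca, -3.0 for Dtx1, -2.83 for Nnat, -2.81 for Bcl11a, -2.74 for Col18a1, -2.28 for Sox4 and -1.73 for Cbx2. The call was lost for 24 of the 90 when 1 library was left out, which besides Asns, Dnmt3a, Dnmt3b, Id2 and Otx2 were Bex4, Btg2, Cbx2, Cox6b2, Gstt2, Itgb1, Lef1, Mdk, Phlda2, Pola2, Pramel6, Prc1, Psma2, Rhox9, Rrm2, Syce3, Timd2, Ttc32 and Wnt6. New and opposite classes also rest on the KO call. Besides Pou5f1, that call was lost for Ndufa9, Prc1 and Rrm2 without any 1 KO E5.5 library. It was lost for Rhox9 without KO E5.5 library 3 and for Sssca1 without KO E5.5 library 1. Under quantile normalization or median ratio scaling it was lost for Itgb1, Ndufa9, Prc1, Psat1, Rhox9, Rrm2 and Smad3.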

How the results depend on the processing

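No named gene or overall count of calls reversed its direction under the alternatives run, but balances within lists did. For example, proteasome genes went from 9 higher and 11 lower in KO to 11 and 8 under quantile normalization, and differences went from 3 and 0 to 1 and 4 in the Nodal list and from 2 and 1 to 1 and 5 in the glycolysis list. The KO count of 2717 lay between 1845 and 2827 with 1 library left out, the WT count of 3388 between 2670 and 3435 and the count of differences of 827 between 458 (without KO E5.5 library 1) and 1034. The count of differences also moved to 520 with a pseudocount of 0.1 and 1664 with array weights. Counts of the classes moved most with scaling. Under quantile normalization shared changes were 621 rises and 598 falls, weaker rises 166, new changes 84 rises and 80 falls, and opposite ones 22 up and 53 down in WT. Under median ratio scaling shared changes were 660 and 564, new ones 88 and 60, and opposite ones down in WT 39. A filter of 5 FPKM, which tests fewer genes, left 905 shared rises, 27 weaker rises, 137 new rises and 52 opposite ones down in WT. Weaker rises were 153 with a pseudocount of 5, 114 without KO ICM libraries 1, 4 and 6 and 111 with the 4 groups in 1 fit. The cause of these shifts was not tested. The gain of 1262 detected KO genes was 1195.2 at 5 FPKM and 1307.7 at 0.1 FPKM.

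Same-numbered libraries did not deviate together (correlations of 0.001, 0.038 and 0.043 in KO), so the numbers do not pair the embryos. With the replicate number as a block the counts were 2439 in KO, 2968 in WT and 713 for the difference. Precision is limited by 3 E5.5 libraries per genotype, by the unknown depth behind FPKM and by the low number of genes in some KO ICMs. Trophoblast markers in all 3 KO E5.5 libraries, and trophectoderm sums of up to 1340 FPKM in WT ICMs, are further limits.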
